A study of Mus musculus with 2 samples.

Results

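The 48 genes described here carry proteins into the endoplasmic reticulum (ER) and move them on in COPII and COPI vesicles, out of 16803 genes measured in cultured mouse neural stem cells. The members were found by gene symbol, from a list drawn up with earlier results of these data known, and all 48 were in the table. RNA was sequenced from NE4C, a cell line of mouse neural stem cells, grown in Eagle MEM on plates coated with poly-L-lysine. The control library came from a normal culture. The other came from a culture given HTL (homocysteine thiolactone), the cyclic thioester of homocysteine, which reacts with lysines in proteins. Neither dose nor time of the HTL treatment is in the labels, which name no genetic change in either culture. Each condition had 1 library, so no difference has a replicate check, and each test compares these 2 libraries, not the conditions.

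Secreted and membrane proteins enter the ER while they are being made. The signal recognition particle (SRP) brings the ribosome to its receptor, the Sec61 channel passes the chain, the translocon-associated protein (TRAP) complex assists it and signal peptidase trims the signal peptide. COPII coats then bud vesicles from the ER towards the Golgi, COPI coats return escaped proteins, and KDEL receptors select ER residents for that return. In many cells, genes of this route are under the control of the unfolded protein response, in which the factors XBP1 and ATF6 act when unfolded proteins accumulate in the ER.

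The control library held 10350665 reads and the HTL treatment library 9102076, after rounding of the estimated counts. Of 10 neural stem cell markers, all 10 were in the table and 7 had a mean of at least 100 reads. The intermediate filament gene Nes had 1617 control and 1365 HTL reads, while Sox2, a transcription factor of neural stem cells, had 894 and 285. Of the 9 markers tested, 3 were called lower (Sox2, Vim and Sox1) and 0 higher, by the rule given below. By the same rule, 7.98% of all genes tested were called lower and 2.81% higher. Prom1 went the other way, with 443 and 555 reads (log2 ratio 0.51). The summed level of the markers was 604 CPM (reads scaled to library size) in the control and 467 in the HTL library. The marker sums of immune cells (3.96 and 3.30 CPM), endothelial cells (6.09 and 5.27 CPM), glia (18.8 and 20.7 CPM), mesenchyme (20.3 and 13.4 CPM) and neurons (52.2 and 58.6 CPM) were lower in both libraries. Of single markers in these lists, Dcx of neurons fell from 88 to 29 reads (-1.40) and Pdgfrb of mesenchyme from 112 to 46 (-1.09). Tubb3, the 1 neuron marker with a mean of at least 100 reads, had 296 and 396 (0.60). Col1a1 of mesenchyme had 12 and 25 (1.21). Of 5 neuron markers, 2 lay above 0 and 3 below, although the summed neuron level was higher in the HTL library. Of 5 mesenchyme markers, 1 lay above 0 and 4 below. The part of these cell types in the values below was not tested. With bulk RNA, fewer cells of a kind and less RNA per cell cannot be told apart.

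Most of the 48 genes had a larger share of the reads in the HTL library, by a modest amount. A log2 ratio is given as HTL over control, scaled to the library totals with 0.5 read added, so that 1 is a doubling, and the range in brackets is its 95% exact Clopper-Pearson interval, which covers counting error only. Of the 48 genes, 41 had a ratio above 0, and the median was 0.33, against -0.14 over the 13442 genes tested. The interval lay wholly above 0 for 31 genes, wholly below 0 for 5 and held 0 for 12. All 48 passed the filter of 10 reads in both libraries together, and 45 had a mean of at least 100 reads. Their summed reads made up 0.532% of the control library and 0.661% of the HTL library.

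A gene was called when its adjusted p in the exact binomial test was at most 0.001 and its log2 ratio was at least 1 in size. By this rule 4 of the 48 genes rose (Kdelr3, Sec24d, Spcs2 and Ssr2) and 2 fell (Srp54a and Golga2). Over all genes tested, 2.81% were called higher and 7.98% lower. With a cutoff of 0.5 in place of 1, the members called numbered 14 higher and 2 lower, where 8.9% of all genes tested were called higher and 18.2% lower. Scaling by TMM, which moved the median of all genes up by 0.13, gave 5 members higher and 0 lower, where 4.11% and 5.95% of all genes were called. By the exact test of edgeR, with 0.2 assumed as the coefficient of variation between cultures, 0 members were called, and 38 of all genes were called higher and 82 lower. The share of higher calls among all calls was 26.1% by library totals and 40.8% by TMM.

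**Figure D1:**
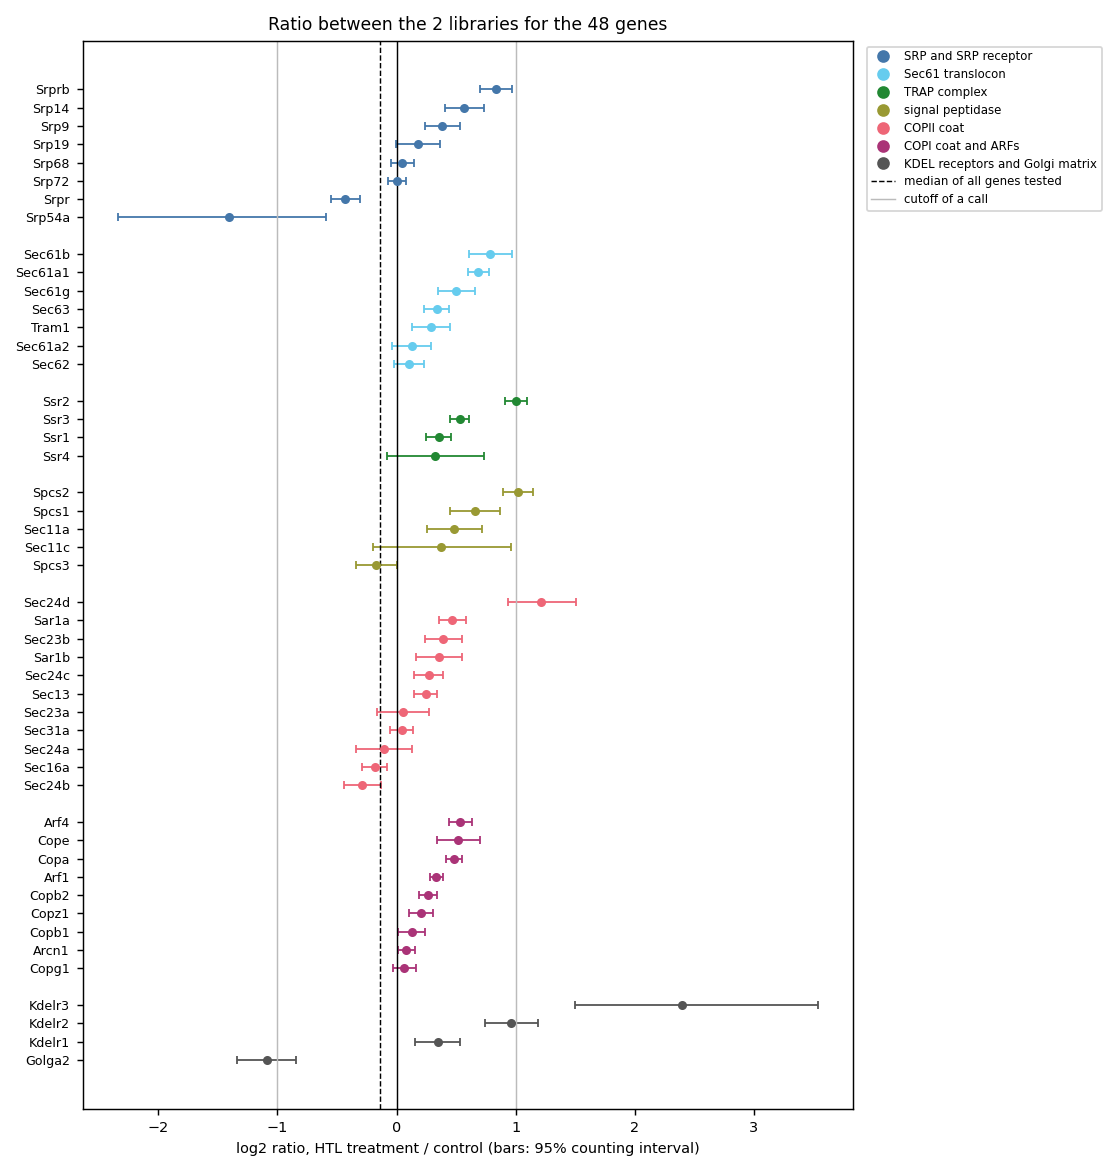
Log2 ratio of HTL over control for the 48 genes, ordered within their 7 roles, with bars for the 95% counting interval, a dashed line at the median of all genes tested (-0.14) and grey lines at the cutoffs of -1 and 1. The 41 genes above 0 lie mostly between 0 and 1, with Kdelr3 at 2.40 farthest to the right and Srp54a at -1.40 farthest to the left.

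The promoters of called members are shown because 3 of the 4 genes that rose have an entry in the RefSeq promoter table (build GRCm38.p6, 250 bases before to 50 after the start of the gene). The promoters were searched on both strands for TGACGTGG, the core of sites bound by XBP1, for the ER stress element (CCAAT, any 9 bases, CCACG), for its second form (ATTGG, any 1 base, CCACG) and for TGACGTCA, the cyclic AMP response element. Capitals mark a match to TGACGTGG or its reverse complement CCACGTCA, and a line without capitals holds no match to any of the 4 motifs. Spcs2 and Sec24d were shown by a rule on the size of the rise, and Kdelr3 was added after its values had been seen.
Kdelr3 promoter, chr15:79516158-79516457, plus strand: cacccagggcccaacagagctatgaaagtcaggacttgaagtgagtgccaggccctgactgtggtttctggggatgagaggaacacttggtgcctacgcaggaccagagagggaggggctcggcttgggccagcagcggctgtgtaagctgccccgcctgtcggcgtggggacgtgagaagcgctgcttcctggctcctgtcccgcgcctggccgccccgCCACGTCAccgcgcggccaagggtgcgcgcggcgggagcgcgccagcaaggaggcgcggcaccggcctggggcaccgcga
Sec24d promoter, chr3:123267246-123267545, plus strand: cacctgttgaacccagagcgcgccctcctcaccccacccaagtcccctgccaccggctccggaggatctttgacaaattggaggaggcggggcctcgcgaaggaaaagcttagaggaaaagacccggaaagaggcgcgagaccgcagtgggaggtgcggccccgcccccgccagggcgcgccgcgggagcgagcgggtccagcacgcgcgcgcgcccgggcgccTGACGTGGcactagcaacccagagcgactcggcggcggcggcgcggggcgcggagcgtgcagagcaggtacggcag
Spcs2 promoter, chr7:99858834-99859133, minus strand: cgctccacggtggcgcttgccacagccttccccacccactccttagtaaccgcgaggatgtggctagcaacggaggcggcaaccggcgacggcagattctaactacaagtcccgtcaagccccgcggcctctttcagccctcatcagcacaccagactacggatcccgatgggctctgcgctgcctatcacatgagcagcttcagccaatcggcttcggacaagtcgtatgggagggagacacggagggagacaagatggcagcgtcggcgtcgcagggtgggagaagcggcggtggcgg

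The letters TGACGTGG stood in the promoter of 6 of the 39 members with an entry (15.4%), of 0.714% of 27025 genes and of 1.05% of the 10615 genes tested that have an entry. Their first base, counted from the start of the gene, lay at -30 in Kdelr3 and -26 in Sec24d. The other matches were in Arf1, Copb1, Copb2 and Sec23a, shown here with 16 bases on each side and turned so that the motif reads TGACGTGG. The 6 genes differed widely in size of change. Their log2 ratios ran from 0.06 in Sec23a and 0.13 in Copb1 over 0.26 in Copb2 and 0.33 in Arf1 to 1.22 in Sec24d and 2.40 in Kdelr3, with a median of 0.30, and the median of the 33 members without the letters was 0.34. Over all 111 genes tested that hold them, the median was -0.06. The ER stress element was found in 0 of the 39 members, in 0.17% of genes tested and in 8 of 294 genes called higher (2.72%), among them the ER chaperone genes Hspa5 and Calr, the second of which was picked after its value had been seen. Its second form was found in 0 of the 39 members and in 0.0848% of genes tested. TGACGTCA was in 1 member (2.56%), Cope, and in 3.57% of genes tested. A match describes these letters in this window and does not show binding. Srp19, Srp68, Sec61a1, Tram1, Ssr2, Spcs3, Sec11c, Arcn1 and Kdelr2 had no entry.
Arf1 promoter window, chr11:59228223-59228262, minus strand: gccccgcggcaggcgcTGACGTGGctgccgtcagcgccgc
Copb1 promoter window, chr7:114254685-114254724, plus strand: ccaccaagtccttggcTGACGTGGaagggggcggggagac
Copb2 promoter window, chr9:98563708-98563747, minus strand: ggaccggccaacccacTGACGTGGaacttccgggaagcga
Sec23a promoter window, chr12:59011988-59012027, minus strand: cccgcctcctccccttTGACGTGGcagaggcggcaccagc

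The targeting step was split. The median of the 8 SRP and SRP receptor genes was 0.11. The 2 parts of the receptor, which anchors the SRP to the ER membrane, stood on opposite sides of 0. Srprb, the membrane-bound beta subunit, had 735 control and 1153 HTL reads (log2 ratio 0.83 [0.70, 0.97]), while Srpr, the alpha subunit that meets the SRP, had 1366 and 892 (-0.43 [-0.55, -0.31]). Neither reached the cutoff of 1, though Srprb passed it relative to genes of like length (1.004). Exons of Srprb overlap those of Trf on the same strand in the GENCODE vM1 annotation, and exons of Srpr overlap those of Fam118b on the opposite strand. The effect of these overlaps on the 2 ratios was not tested.

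Within the SRP itself, the small Alu-domain proteins that slow elongation were higher in the HTL library. Srp14 had 540 and 704 reads (0.57 [0.40, 0.73]) and Srp9 had 693 and 796 (0.38 [0.24, 0.53]). Of the other SRP proteins, those encoded by Srp68, Srp72 and Srp19 bind the SRP RNA away from the Alu domain. Srp68 had 1925 and 1752 reads (0.05 [-0.04, 0.14]), Srp72 had 2922 and 2577 (0.00 [-0.07, 0.08]) and Srp19 had 476 and 474 (0.18 [-0.01, 0.37]). The intervals of these 3 held 0.

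Srp54a, which encodes the subunit that binds the signal peptide, fell from 49 to 16 reads (-1.40 [-2.34, -0.59], adjusted p = 0.00073 in the exact binomial test). Its value is uncertain, because mouse has the near copies Srp54b and Srp54c, the estimated count of Srp54a was fractional and its exons overlap those of Srp54b. Most reads of the 3 genes were assigned to the copies, with 293 control and 194 HTL reads for Srp54b and 670 and 364 for Srp54c. Summed over the 3 genes, a choice made after seeing the data, the reads were 1012 and 574, and the log2 ratio of -0.63 [-0.78, -0.48] did not reach the cutoff. The call of Srp54a was also lost under TMM scaling, where its ratio was -1.28, and with the ratio of FPKM + 1 (-0.57). It was lost too in edgeR's exact test with 0.1 assumed as the coefficient of variation. The gene left the test at a mean of at least 50 reads. All 3 copies were lower in the HTL library.

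The 7 genes of the Sec61 translocon all had ratios above 0, from 0.10 to 0.79, with a median of 0.34 and none called. The 3 subunits of the channel, taking Sec61a1 as the pore, had the 3 highest ratios by library totals. Relative to genes of like length this order did not hold, with Sec61g at 0.36, below Sec63 at 0.62 and Tram1 at 0.46. Sec61b, the beta subunit, had 438 and 665 reads (0.79 [0.61, 0.97]), Sec61a1, which forms the pore, had 1920 and 2719 (0.69 [0.60, 0.77]) and Sec61g, the gamma subunit, had 629 and 784 (0.50 [0.35, 0.66]). The second pore gene, Sec61a2, had 618 and 593 reads (0.13 [-0.04, 0.29]). The 3 partners of the channel also lay above 0. Sec63, which brings the chaperone BiP to the channel, had 1439 and 1599 reads (0.34 [0.23, 0.44]), Tram1, a membrane protein beside the channel, had 625 and 673 (0.29 [0.13, 0.45]) and Sec62, which serves chains that enter after synthesis, had 1006 and 951 (0.10 [-0.02, 0.23]).

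The TRAP complex, a partner of Sec61 that helps chains with weak signal peptides to enter, had 4 of 4 genes above 0 and a median of 0.44. Ssr2, the beta subunit, rose from 1604 to 2827 reads (1.00 [0.91, 1.09], adjusted p = 1.11e-112 in the exact binomial test), just past the cutoff, and its call was lost with the ratio of FPKM + 1 (0.995). Per transcript length it had the highest level of the 24 genes on the translocation side, at 133 FPKM (reads scaled to transcript length and library size) in the control and 266 FPKM in the HTL library. The other 3 subunits did not pass the cutoff. Ssr3 had 2343 and 2974 reads (0.53 [0.45, 0.61]), Ssr1 had 1339 and 1503 (0.35 [0.24, 0.46]) and Ssr4, with few reads, had 99 and 109 (0.32 [-0.08, 0.73]).

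Signal peptidase, which cuts the signal peptide from the chain, had a median of 0.48 over 5 genes. Spcs2, an accessory subunit, rose from 799 to 1424 reads (1.02 [0.89, 1.15], adjusted p = 1.61e-58 in the exact binomial test), and its call was lost with the ratio of FPKM + 1 (0.99). The small subunit Spcs1 had 319 and 442 reads (0.66 [0.45, 0.87]), and the catalytic subunits Sec11a and Sec11c had 278 and 342 (0.48 [0.25, 0.72]) and 49 and 56 (0.37 [-0.20, 0.96]). Spcs3 had 637 and 498 reads (-0.17 [-0.342, 0.002]), and its interval held 0. The 5 genes thus ran from -0.17 to 1.02.

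**Figure D2:**
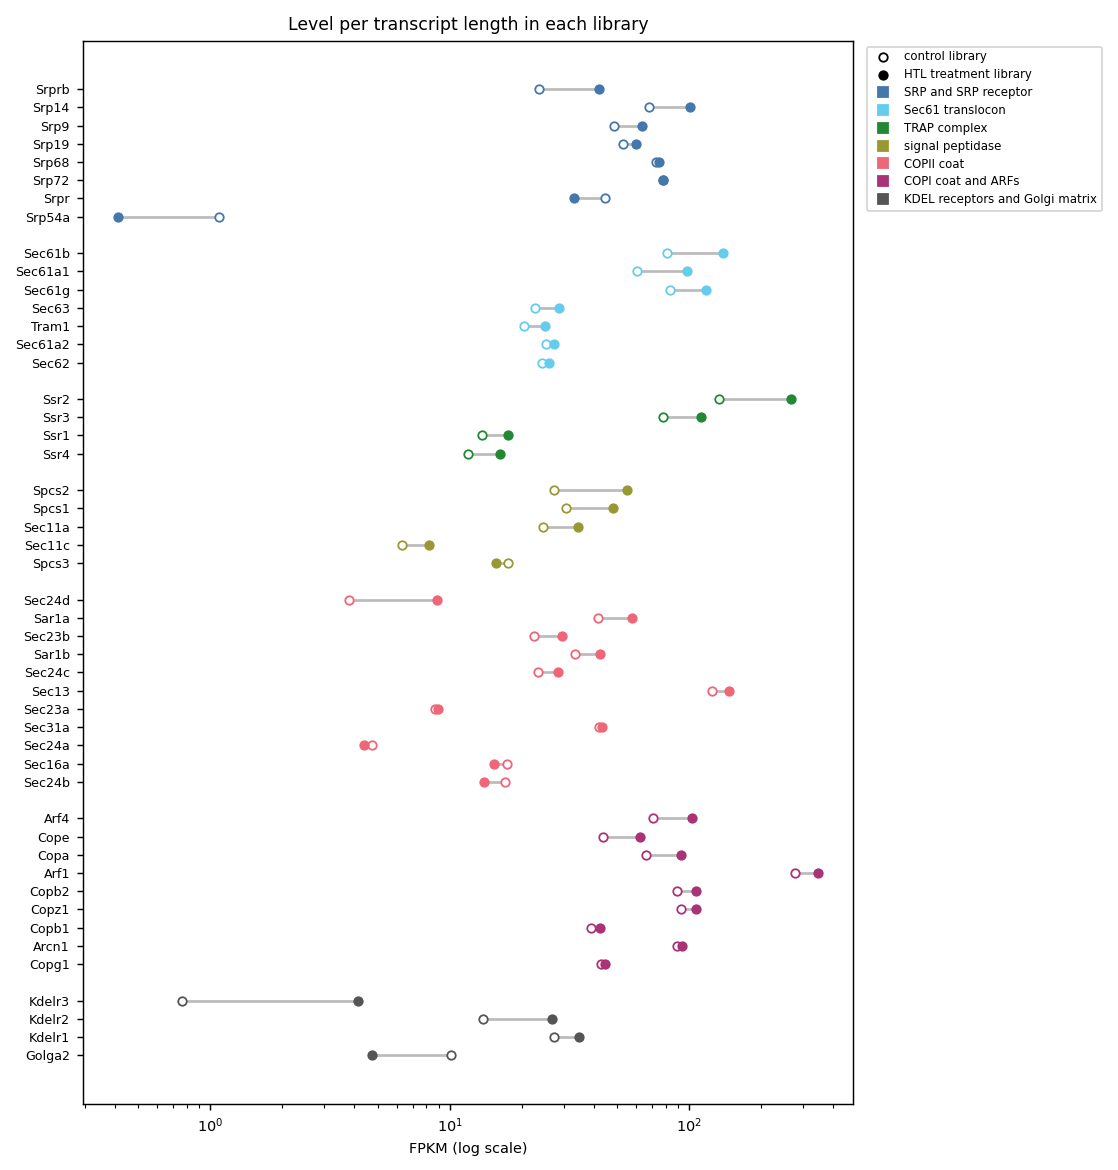
FPKM on a log axis for the 48 genes in the control library (open points) and the HTL library (filled points), coloured by role and ordered as in the plot of ratios. Levels spread from 0.41 FPKM (Srp54a, HTL) to 346 FPKM (Arf1, HTL), and the filled point lies to the right of the open point for most genes.

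The median log2 ratio was 0.27 over the 24 vesicle and Golgi genes and 0.36 over the 24 translocation genes, a difference that was not tested. Relative to genes of like length, the 2 medians lay close together, at 0.37 and 0.38. Among the 11 COPII genes the median was 0.24 and 8 lay above 0. Sec24d, a cargo-binding subunit of the inner coat, rose from 154 to 315 reads (1.22 [0.94, 1.51], adjusted p = 6.96e-18 in the exact binomial test). The other 3 Sec24 genes were not called. Sec24c had 1061 and 1124 reads (0.27 [0.15, 0.39]), Sec24a had 337 and 276 (-0.10 [-0.34, 0.13], and 0.027 under TMM) and Sec24b had 834 and 601 (-0.29 [-0.44, -0.13]). Exons of Sec24d overlap those of Mettl14 on the opposite strand, and Mettl14 had 498 and 297 reads.

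The rest of the COPII coat lay within 0.5 of 0. Of the GTPase that starts the coat, Sar1a had 1127 and 1370 reads (0.47 [0.35, 0.58]) and Sar1b had 426 and 479 (0.35 [0.16, 0.55]). Of Sec23, which stimulates that GTPase, Sec23b had 652 and 753 reads (0.39 [0.24, 0.55]) and Sec23a had 371 and 339 (0.06 [-0.16, 0.27]). The outer cage genes Sec13 and Sec31a, whose proteins form the same cage, had 1654 and 1723 reads (0.24 [0.15, 0.34]) and 1863 and 1689 (0.04 [-0.05, 0.14]). Sec13 is also part of the nuclear pore. Sec16a, the scaffold of ER exit sites, had 1599 and 1237 reads (-0.18 [-0.29, -0.08]).

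The COPI group had the narrowest range of the 7 roles. Its 7 coat genes and 2 ARF genes all had ratios between 0.07 and 0.54, with a median of 0.26 and none called. The alpha subunit gene Copa had 3210 and 3951 reads (0.48 [0.42, 0.55]) and the epsilon subunit gene Cope had 464 and 585 (0.52 [0.34, 0.70]). These 2 subunits belong to the outer part of the coat, whose other gene, Copb2, had 2821 and 2979 reads (0.26 [0.19, 0.34]). The genes of the adaptor part lay lower. Copz1 had 1601 and 1619 reads (0.20 [0.10, 0.30]), Copb1 had 1349 and 1295 (0.13 [0.02, 0.24]), Arcn1 had 3209 and 2988 (0.08 [0.01, 0.15]) and Copg1 had 1708 and 1572 (0.07 [-0.03, 0.17]). No gene of the adaptor part had a ratio as high as Copb2, which had the lowest ratio of the outer part. Arf1, the small GTPase that recruits the coat, had the most reads of the 48 genes, at 5121 and 5670 (0.33 [0.28, 0.39]), and Arf4 had 1499 and 1912 (0.54 [0.44, 0.64]).

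The 3 KDEL receptors had ratios from 0.34 to 2.40. Kdelr3 had the largest ratio of the 48 genes and rose from 11 to 53 reads (2.40 [1.5, 3.54], adjusted p = 1.72e-08 in the exact binomial test). The ratio was 2.01 with 5 reads added and 1.55 with the ratio of FPKM + 1, and the gene left the test at a mean of at least 50 reads. Its level stayed the lowest of the 3 receptors, at 0.76 FPKM in the control and 4.15 FPKM in the HTL library. Kdelr2 had 265 and 454 reads (0.96 [0.74, 1.19]), just short of the cutoff, and was called under TMM scaling and relative to genes of like length (1.009). Kdelr1 had 429 and 479 reads (0.34 [0.15, 0.54]). Exons of Kdelr3 overlap those of Ddx17 on the opposite strand, and Ddx17 had 4117 and 1876 reads, so it was lower where Kdelr3 was higher. The effect of such overlaps was not tested, since the use of strand in counting is not stated.

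Golga2 encodes GM130, a coiled-coil protein of the cis-Golgi that tethers incoming vesicles, and it fell from 464 to 192 reads (-1.09 [-1.34, -0.84], adjusted p = 6.51e-19 in the exact binomial test). Its call was lost under TMM scaling (-0.96), relative to genes of like length (-0.88) and with the ratio of FPKM + 1 (-0.95). Its exons overlap those of Swi5 on the opposite strand, and Swi5 had 1212 and 1403 reads. No other member of the vesicle side had a ratio below -0.29. Of 20 related tethers and SNAREs outside the 48, 10 lay below 0 and 10 above, and none was called. Among them, Gorasp1 had 390 and 209 reads (-0.71), Golgb1 had 1145 and 699 (-0.53) and Gorasp2 had 833 and 1254 (0.78).

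Paralogous genes were compared pair by pair, which needs no scaling of the libraries. Of 15 pairs, 14 could be tested with Fisher's exact test on the reads, and 5 had an adjusted p of at most 0.001. Sec24c lay below Sec24d by a log2 difference of -0.95 [-1.26, -0.64] (adjusted p = 5.61e-09, Fisher's exact test). Sec61a1 lay above Sec61a2 by 0.56 [0.38, 0.75] (adjusted p = 1.39e-08, Fisher's exact test). Kdelr1 lay below Kdelr3 by -2.05 [-3.21, -1.13] (-1.22 with FPKM + 1) and below Kdelr2 by -0.62 [-0.91, -0.32] (adjusted p = 7.63e-06 and 9.7e-05, Fisher's exact test). Arf1 lay below Arf4 by -0.20 [-0.32, -0.09] (adjusted p = 0.00095, Fisher's exact test).

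The other 9 tested pairs missed that threshold, which does not show that the paralogues moved alike. The difference was -1.44 [-2.60, -0.50] between Kdelr2 and Kdelr3 (-0.64 with FPKM + 1) and -0.34 [-0.60, -0.07] between Sec23a and Sec23b. It was 0.11 [-0.11, 0.34] between Sar1a and Sar1b, 0.11 [-0.53, 0.73] between Sec11a and Sec11c and 0.18 [-0.10, 0.47] between Sec24a and Sec24b. For genes outside the 48, it was 0.98 [0.23, 1.77] between Tram1 and Tram2, 1.70 [0.31, 3.56] between Sec31a and Sec31b (0.40 with FPKM + 1), 0.09 [-0.08, 0.27] between Copg1 and Copg2 and 0.06 [-0.45, 0.56] between Copz1 and Copz2. Tram2 and Sec31b had 46 and 19 control reads.

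Within a family, these differences shifted the mixture of transcripts per length. Sec24d made up 7.76% of the summed FPKM of the 4 Sec24 genes in the control and 15.9% in the HTL library, while Sec24b went from 34.6% to 25.1% and Sec24c stayed the main form at 47.96% and 51.1%. Kdelr1 went from 65.4% to 52.9% of the KDEL receptor FPKM, Kdelr2 from 32.8% to 40.7% and Kdelr3 from 1.82% to 6.34%. Sec61a1 went from 70.7% to 78.1% of the 2 pore genes. In each family the main form was the same gene in both libraries.

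**Figure D3:**
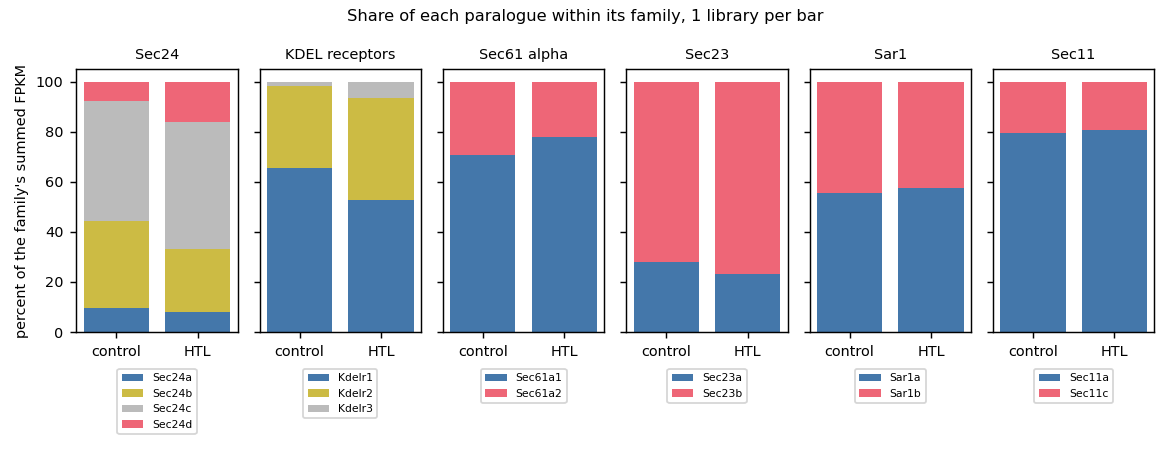
Share of each paralogue in the summed FPKM of its family, in percent, with 1 stacked bar per library for 6 families. The share of Sec24d goes from 7.76% to 15.9% and that of Kdelr3 from 1.82% to 6.34%, while the Sar1 and Sec11 families keep nearly the same mixture.

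Transcript length moved with the ratios of all genes. With the genes tested split by length into 10 bins of like size, the median log2 ratio was 0.14 in the bin of shortest transcripts and -0.38 in that of the longest. The 48 genes spread over this range, with 9 of them in the shortest bin and 3 among the longest transcripts. Set against the median of all genes tested in the same bin, 43 of the 48 lay above it, and the median difference was 0.37. Of the genes that lay below 0, Sec24a and Sec16a, both long, lay above their bin by 0.28 and 0.19. The other 5 lay below theirs, with differences of -0.26 for Srpr, -1.20 for Srp54a, -0.88 for Golga2, -0.085 for Sec24b and -0.0016 for Spcs3.

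**Figure D4:**
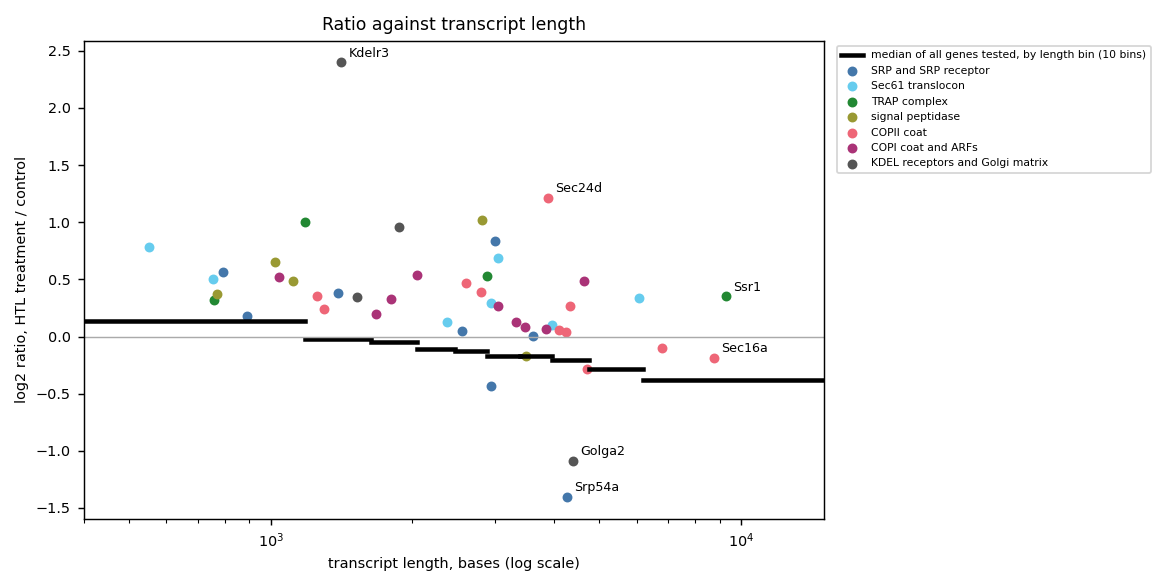
Log2 ratio of the 48 genes (points, coloured by role) against transcript length in bases on a log axis, with black bars for the median of all genes tested in each of 10 length bins. Most points lie above the bar of their own bin, 43 of 48 in all, while the bars run from 0.14 to -0.38.

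Other genes of the same route were read from lists of related genes. Of the ER membrane complex, which inserts membrane proteins, 0 of 10 genes were called, and the median was 0.37. The 6 tested genes of the GET pathway, which inserts tail-anchored proteins after synthesis, had a median of -0.13 and no call, close to the median of all genes. Among 10 other translocon and targeting genes, 3 rose and 0 fell, where 2.81% of all genes tested were called higher. They were Hspa5, which encodes the chaperone BiP that seals and pulls at the channel, from 6184 to 59487 reads (3.45), Hyou1, its exchange factor, from 4857 to 12830 (1.59), and Serp1, a small Sec61 partner, from 726 to 1513 (1.24). Serp1 was outside the rule for names and was picked after its value had been seen.

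Around the vesicles, where 2.81% of all genes tested were called higher and 7.98% lower, 2 of 15 other COPII and ER exit genes rose and 0 fell, with a median of 0.10. Mcfd2, a cargo receptor cofactor, had 304 and 561 reads (1.07), and Cnih1, a cargo receptor, had 414 and 756 (1.05). Of the 15, 9 lay above 0 and 6 below, and Ctage5 had 697 and 352 reads (-0.80), short of the cutoff. The 9 p24 cargo receptors, which cycle in COPI and COPII vesicles, had no call and a median of 0.54. Of 11 other COPI and ARF genes, 1 rose, Arf2, from 180 to 407 reads (1.36), and the median was 0.17. In this list 7 lay above 0 and 4 below, the lowest being Arfgap1 with 295 and 137 reads (-0.92). The 20 tethers and SNAREs, which dock and fuse these vesicles, had no call and a median of -0.01.

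Steps next to the route differed in size. For comparison, 2.81% of all genes tested were called higher and 7.98% lower. Of 12 oligosaccharyltransferase genes, which attach sugars to chains as they leave Sec61, 2 rose (Stt3a, 1.05, and Rpn1, 1.05) and 12 lay above 0, with a median of 0.43. Of 29 genes of ER folding and degradation, 19 rose and 0 fell, with a median of 1.27. These include Hspa5 and Hyou1, counted above among the translocon genes too, and Herpud1, a gene of ER-associated degradation, which rose from 471 to 2839 reads (2.78). The 19 genes of clathrin coats, adaptors and retromer, which serve the later route, had no call, a median of 0.07 and ratios from -0.60 to 0.48. Among 10 transcription factors of stress and secretion, 5 rose, including Xbp1 from 206 to 625 reads (1.78) and Ddit3 from 98 to 385 (2.15). The medians of the 7 roles, 0.11 to 0.65, lay between those of the clathrin and the folding lists. These lists were chosen with earlier results known, and their differences were not tested.

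**Figure D5:**
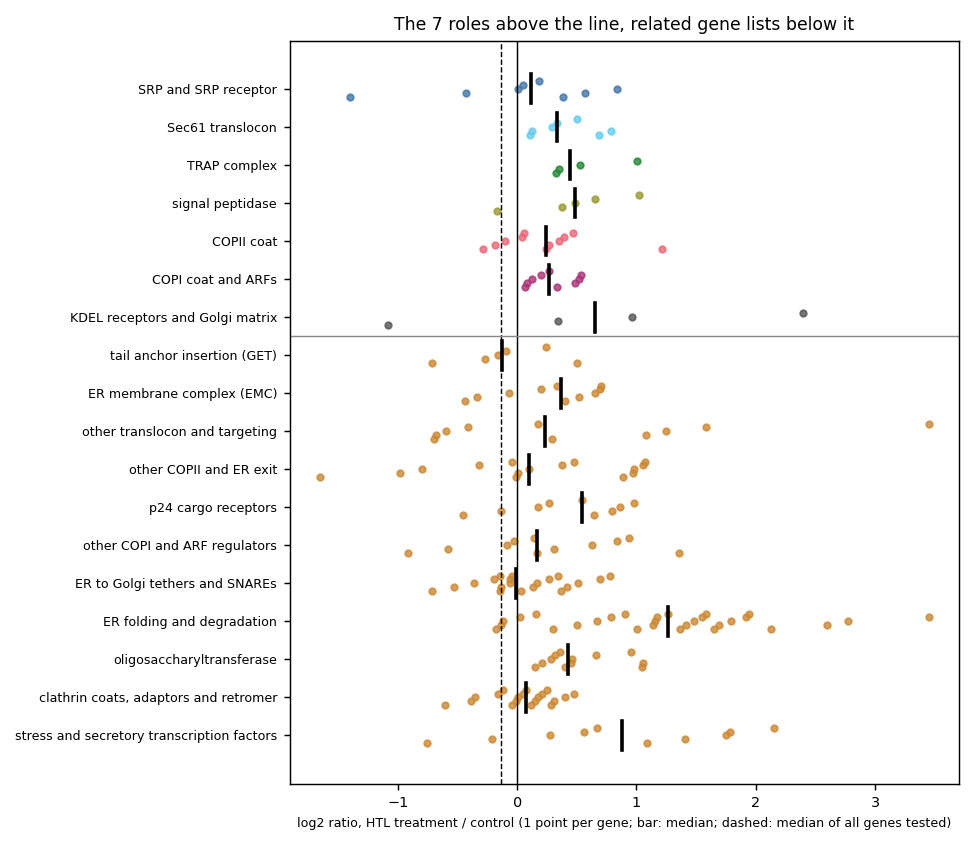
Log2 ratio of each tested gene, 1 point per gene, for the 7 roles of the 48 genes (above the grey line) and 11 related lists (below it), with a black bar at each median and a dashed line at the median of all genes tested (-0.14). The folding list has the highest median (1.27), and the GET list (-0.13) lies on the dashed line.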

How the data were processed

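RNA of NE4C cells was sequenced in 1 control library and 1 HTL treatment library. Libraries were made with a TruSeq kit and run with BGISEQ protocols. The authors estimated reads per gene with RSEM, and the submitters' processing notes name the build mm9. Aligner, annotation and strand setting are not given in the sources used here. The deposited table held estimated counts (expected counts of RSEM, not normalized) and transcript length in bases. Its FPKM values were scaled by the authors to length and library size. The authors' log2 ratio, p-value and FDR columns were not used. No per-sample column was left unmapped (0).

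Estimated counts were rounded. A two-sided exact binomial test against library totals, with Benjamini-Hochberg adjustment, was run on the 13442 genes whose reads summed to 10 or more, and 3361 genes were left out. Calls required an adjusted p no higher than 0.001 together with a log2 ratio of 1 or more in size. Paralogues were compared with Fisher's exact test, adjusted over 14 pairs. A count of 0 allowed up to 3 reads, or 0.290 CPM in the control and 0.330 CPM in the HTL library. The reads carry no molecular identifiers and are not independent molecules. Tests, intervals and floors therefore cover counting error alone. On simulated counts the test called 200 of 200 changed genes and 0 of the others. That score is a check of the procedure only. It does not show how the test performs on modest ratios, on few reads or with variation between cultures, so it lends no weight to the calls of members. Alternatives used edgeR 4.0.16 and DESeq2 1.42.0 size factors under R 4.3.3, and statistics used scipy 1.17.1.

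All 48 members were named, plus the called genes of related lists with the largest rise and fall (at most 2 each, mean of at least 100 reads), with Hspa5 and Xbp1. Genes named beside these, such as copies, overlapping genes, markers and related genes that were not called, were chosen after their values had been seen. Members and lists were chosen with earlier results of these data known. Exon overlaps came from GENCODE vM1 (NCBIM37), in which 47 members were found and 14 overlapped another gene, and promoters from RefSeq (GRCm38.p6).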

Additional observations from a re-analysis of the deposited data

How the results depend on the processing

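No paired analysis was possible because there was 1 library for each condition, and none could be left out. The median log2 ratio of the 48 genes was 0.46 under TMM, 0.47 under median of ratios and 0.43 under upper quartile scaling, and 0 members were called lower under each. Members called higher and lower numbered 3 and 1 with a mean of at least 50 reads (all genes: 295 and 859). Kdelr3 and Srp54a were not tested there. Relative to genes of like length the counts were 6 and 1 (all genes: 513 and 775), where Srprb and Kdelr2 were added and Golga2 lost its call. In edgeR's exact test with 0.1 as the assumed coefficient of variation they were 4 and 1 (all genes: 296 and 831). Srp54a lost its call in that test. With the ratio of FPKM + 1, 2 members were called higher (Spcs2 and Ssr2 lost their calls) and 0 lower (Srp54a and Golga2 lost theirs), and 241 genes higher and 575 lower. With an assumed coefficient of variation of 0.2, 38 genes were called higher and 82 lower, and with 0.4, 1 and 5. At both, 0 members were called higher and 0 lower by edgeR's exact test at an adjusted p of 0.001. At a cutoff of 0.5, 14 members were called higher, and 1197 genes higher and 2441 lower. Sec24a turned to 0.027 under TMM, 0.034 under median of ratios and 0.28 relative to length, and Sec16a to 0.19 relative to length. All 14 tested pair differences kept their sign with 5 reads added, with FPKM + 1 and relative to length. Their p-values rest on the reads and could not move under these settings. The cause of these changes was not tested, except that fewer genes were tested at a mean of at least 50 reads. Depth limited Srp54a, Kdelr3 and Sec11c, each with 11 to 56 reads in a library.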
